A study of Homo sapiens with 6 samples.

Results

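The 39 HOX genes of the human HOXA, HOXB, HOXC and HOXD clusters were followed across 5 RNAs of ovarian cancer cells on 6 Agilent Whole Human Genome arrays. Members were all non-control probes whose gene name on the array is HOXA, HOXB, HOXC or HOXD followed only by digits. This gave 53 of 41000 probes and 39 of 29123 gene names. For the 12 genes with several probes, the probe with the brightest mean signal over all arrays stood for the gene. HOX genes encode homeodomain transcription factors that give cells of the embryo their position along the head-to-tail axis. They lie in clusters, where the number in the name follows the order along the chromosome: low numbers are used toward the head and high numbers toward the tail. The HOX proteins bind DNA together with cofactors of the PBX and MEIS families, Polycomb and trithorax proteins hold the clusters off or on, and HOXA9, HOXA10, HOXA11 and HOXA13 pattern the embryonic Müllerian duct, from which the oviduct, uterus and upper vagina form.

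Both cell lines are established lines of epithelial ovarian cancer (EOC). Each array compared 2 RNAs, one in the dye Cy3 and one in Cy5, and every comparison was made on 2 arrays with the dyes exchanged. In SKOV3 cells, the clones sh-S1 and sh-S2, stably transduced with pLKO.1-puro vectors that carry an shRNA against Hic-5 and selected in puromycin, were set against a Ctrl clone made with a scramble sequence in the same vector. In A2780s cells, the clone pCMV-Hic-5, stably transfected with the human Hic-5 gene in pCMV6 and selected in neomycin, was set against a Ctrl with the empty vector. Each modified RNA came from 1 clone, and the Ctrl of a line was 1 RNA on all arrays of that line. The arrays with swapped dyes repeat the same RNAs, which leaves 2 replicates in SKOV3, the clones, and 1 in A2780s. The 4 SKOV3 arrays lay on 1 slide and the 2 A2780s arrays on another, so that effects of the slide and of the line cannot be told apart.

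The median signal over background on the SKOV3 arrays was 373 to 530.5 in Cy3 but only 9.52 to 25.5 in Cy5. The share of spots well above background was 43.7 to 63.6% in Cy5 and 88.8 to 94.5% in Cy3. TGFB1I1, which encodes Hic-5, went against the label of the SKOV3 clones. Its log2 ratio to the Ctrl was -0.16 and 0.12 on the arrays of sh-S1 and -0.12 and 0.28 on those of sh-S2, and the mean of 0.03 did not pass (limma's adjusted p = 0.854). The directions given for the SKOV3 clones therefore rest on their labels, and both are called the sh-labelled RNAs. In pCMV-Hic-5, TGFB1I1 was higher than in the Ctrl on both arrays, by log2 ratios of 4.05 and 2.60. Its level was also higher in the A2780s Ctrl than in the SKOV3 Ctrl, by 4.65 on the log2 scale. Directions between the Ctrl RNAs thus rest on their labels as well. The markers of ovarian carcinoma moved as well. Of 7 that were tested, 5 were lower in the sh-labelled RNAs, among them the Müllerian transcription factor PAX8 at a log2 ratio of -3.58 and the keratin KRT18 at -3.52, and ERBB2, which is amplified in SKOV3, was at -2.28. In the A2780s Ctrl, 4 of 7 of these markers were lower than in the SKOV3 Ctrl, PAX8 by a log2 difference of -5.02 and KRT18 of -5.25. Of 5 fibroblast markers tested, COL3A1 at 3.65 and THY1 at 1.46 were higher in the sh-labelled RNAs, while the blood marker CD14 was at 0.06 and PTPRC and both endothelial markers were not tested there. Whether these differences have a part in the HOX values was not tested.

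Each HOX level was read through a probe of 60 bases. The first 30 bases, 5′ to 3′, are shown for the genes that the results turn on, because a HOX signal is only as particular as its probe. Positions are those of the whole probe on hg19, as the array files give them.
HOXB9 (A_23_P27013, chr17:46698615-46698674, minus strand): ttctttgggggtgattgtctcgcttgtttt
HOXB13 (A_24_P365015, chr17:46802144-46802203, minus strand): tcccacactctgctatcagaaacttaaact
HOXC9 (A_23_P25150, chr12:54396612-54396671, plus strand): agaaaactcttgcgatttgggagggttcag
HOXC12 (A_23_P335981, chr12:54350226-54350285, plus strand): agcgccggagggaactctcagaccgcttga
HOXC13 (A_23_P64808, chr12:54340034-54340093, plus strand): gatctagttcaagaggcaagaagatctggc
HOXA13 (A_23_P389281, chr7:27236674-27236733, minus strand): ttagtgattcatcttcacagcacattttta
Across the 53 probes, the longest run of bases that a probe shares with a probe of another HOX gene on the same strand was 7 to 15 bases. The probes of HOXB9 and HOXC9, members of the same paralogue group, share a run of 11 bases with each other. This compares probes, not the transcripts they bind.

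Many HOX genes gave little signal, as did many probes of the whole array. HOXA11 was not well above background in any channel, and 16 genes were well above background in all 12 channels. A gene was tested in SKOV3 when its probe was well above background either on every array of the Ctrl or, for a clone, on the pair of arrays that carried it, which held for 23 genes. Over the whole array, 24956 of 41000 probes were tested there, a share near that of the 39 HOX genes. HOXA6, HOXC8 and HOXC12 entered only through a clone. By the same rule within the line, 28 genes were measured in A2780s, beside 30530 of 41000 probes, again a similar share. The genes measured in neither line, 11 in all, included HOXA2, HOXA5, HOXA7, HOXA9, HOXA11, HOXB1, HOXC4, HOXC5, HOXD4 and HOXD12. HOXA4, HOXA10, HOXC6, HOXC11 and HOXD11 were measured in A2780s but not in SKOV3. Of the Müllerian HOXA genes, HOXA9 and HOXA11 were thus measured in neither line, HOXA10 in A2780s alone and HOXA13 in both. HOXA10 was measured through its brightest probe only, which has no genome position in the array files. That probe shares a run of 15 bases with a probe of HOXB6. The other probes of HOXA10 were well above background on 1 array of each A2780s RNA, so they were not measured.

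In SKOV3, 5 of the 23 HOX genes tested were higher in the sh-labelled RNAs than in the Ctrl and none was lower, by the rule of an adjusted p of at most 0.05 in limma with 2-fold or more. They were HOXC9, HOXB9, HOXC13, HOXB13 and HOXA3. Of all 24956 probes tested, 2.99% were called higher and 4.14% lower by this rule. The median log2 ratio of the 23 genes was 0.30, and that of all 39 genes was 0.05, against 0.00 over all probes tested. Of the 5 genes, 4 belong to paralogue groups 9 to 13, the tail-ward end of the clusters, where 10 genes were tested. In groups 1 to 4, 1 of 6 genes was called, and in groups 5 to 8, none of 7. By cluster, 1 of 3 tested genes was called in HOXA, 2 of 9 in HOXB, 2 of 5 in HOXC and 0 of 6 in HOXD.

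**Figure D1:**
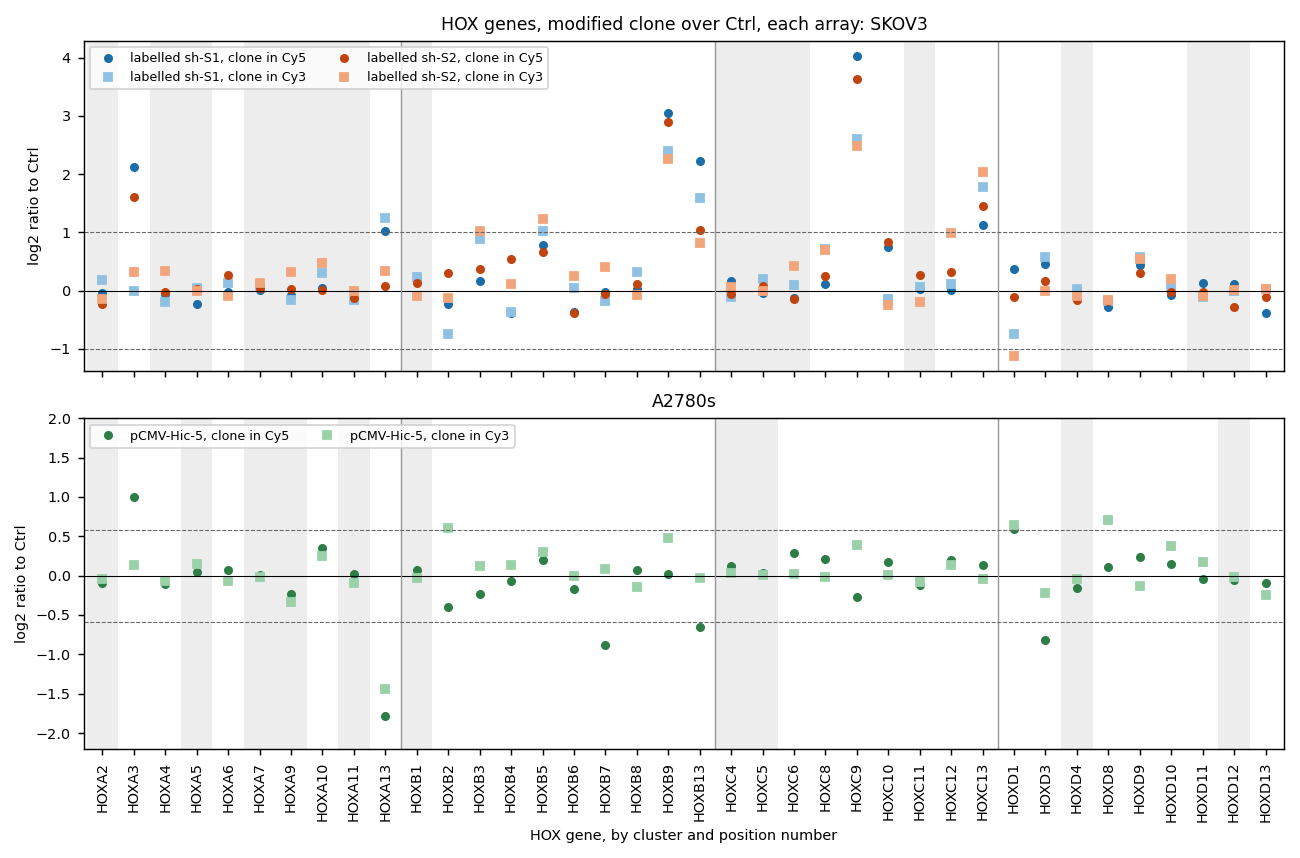
The log2 ratio of modified clone over Ctrl (y axis) is plotted for each array and each HOX gene named in the text (x axis, by cluster and position number), with the 4 SKOV3 arrays above and the 2 A2780s arrays below. Grey columns are genes that were not tested or measured in that line, and dashed lines mark 2-fold in SKOV3 and 1.5-fold in A2780s. HOXB9 and HOXC9 stand above 2-fold on all SKOV3 arrays, between 2.25 and 4.03, and HOXA13 is lowest in A2780s, at -1.78 and -1.44.

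HOXC9 and HOXB9 belong to the same paralogue group and pattern the thoracic region. HOXC9 gave log2 ratios to the Ctrl of 4.03 with sh-S1 in Cy5, 2.60 with sh-S1 in Cy3, 3.64 with sh-S2 in Cy5 and 2.49 with sh-S2 in Cy3. HOXB9 gave 3.04, 2.41, 2.89 and 2.25 in the same order. Both genes were thus far above the Ctrl on all 4 arrays, and for both the ratio was larger with the clone in Cy5. HOXC9 had a mean of 3.19 ± 0.18 (SD, n = 2 clones), which is 9.13-fold (limma's adjusted p = 4.26e-06). HOXB9 had a mean of 2.65 ± 0.11 (SD, n = 2 clones), or 6.27-fold (limma's adjusted p = 6.20e-06). These p-values leave out how far the Ctrl itself would vary, since 1 Ctrl RNA served all arrays. The SDs and p-values given for SKOV3 also leave out the spread between dyes, as swapped arrays were averaged first. Over all probes tested, the swapped arrays of a clone correlated at 0.61 for each clone (Pearson). The 2 clones in the same dye correlated at 0.89 in Cy5 and 0.90 in Cy3. As bulk RNA was measured, more cells with a transcript and more transcript per cell cannot be told apart.

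The genes that flank these on the chromosome had smaller ratios on the main signals, but HOXC8 and 1 probe of HOXC10 were past 2-fold on the processed signals of the scanner software. HOXB8, whose probe lies 8.8 kb from that of HOXB9, was at a mean log2 ratio of 0.10, and HOXB7 was at 0.04. HOXC8, whose probe lies 9.7 kb from that of HOXC9, was at 0.45, and HOXC10, 12.9 kb away on the other side, was at 0.30. HOXC10 gave 0.75 and 0.83 with sh-S1 and sh-S2 in Cy5 but -0.14 and -0.25 with them in Cy3, so its direction turned with the dye. It did not pass (limma's adjusted p = 0.0509), but its other probe was at 0.71 (limma's adjusted p = 0.00219), and on the processed signals that probe was at 2.52. HOXC8 gave 0.11, 0.72, 0.26 and 0.70 on the 4 arrays, in the order above, and HOXB7 gave -0.02, -0.17, -0.05 and 0.41. The value of HOXC8 moved with the correction of the signals: on the processed signals its log2 ratio was 2.26 and was called. HOXC8 was well above background on only 2 of the 4 Ctrl arrays and entered the test only through sh-S2, so its size is uncertain.

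HOXC13, a regulator of hair and nail keratins, gave log2 ratios of 1.13 and 1.78 in the RNA labelled sh-S1 (Cy5, then Cy3) and of 1.46 and 2.04 in that labelled sh-S2. All 4 arrays were above 2-fold. The mean was 1.60 ± 0.21 (SD, n = 2 clones), or 3.03-fold (limma's adjusted p = 8.18e-05), and on the processed signals it was 3.34. Set apart by dye, the log2 level in Cy3 was 10.39 and 10.57 in the clones against 7.17 to 7.40 in the Ctrl. In the dim Cy5 channel the clones were at 8.52 and 8.62 and the Ctrl at 8.53 to 8.62, so the RNAs overlapped there. HOXC12, whose probe lies 10.2 kb away, was not well above background in the Ctrl or the RNA labelled sh-S1. Its log2 ratios were 0.02 and 0.11 in the RNA labelled sh-S1 and 0.32 and 1.00 in that labelled sh-S2. Well above background in the latter alone, it had a mean ratio of 0.36 that did not pass (limma's adjusted p = 0.114), and on the processed signals it was at 1.85, which did not pass either.

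HOXB13, a gene of the tail region and the prostate, lies apart from the rest of its cluster, with its probe 103.5 kb from that of HOXB9. Its log2 ratios were 2.22 and 1.60 in the RNA labelled sh-S1 (Cy5, then Cy3) and 1.04 and 0.83 in that labelled sh-S2. All arrays were above 0, and sh-S1 was above sh-S2 on each. The mean was 1.42 ± 0.69 (SD, n = 2 clones), or 2.68-fold (limma's adjusted p = 0.00251), and the other probe of the gene had a mean of 0.99. Without sh-S1, HOXB13 was at 0.93 and HOXA3 at 0.96, so that 3 genes rather than 5 stayed above 2-fold.

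HOXA3, a gene of the pharyngeal region, was called on uneven values. Its brighter probe gave 2.12 with sh-S1 in Cy5 but 0.00 with sh-S1 in Cy3, and 1.60 against 0.32 for sh-S2. With the clone in Cy3 the ratio was thus near 0. Its mean of 1.01 ± 0.07 (SD, n = 2 clones) lay at the fold threshold (limma's adjusted p = 0.000339). Its other probe was below the Ctrl on all 4 arrays, with a mean of -0.65 (limma's adjusted p = 0.00375) that became -3.14 on the processed signals. This probe was well above background in the Ctrl, on 1 array of the RNA labelled sh-S1 and on none of that labelled sh-S2. Averaged over both probes, HOXA3 was at 0.18 and was not called, and it fell short of 2-fold on the processed signals as well, at 0.71.

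A further 6 genes passed the adjusted p but not the fold. HOXB5, which acts in the trunk, gave 0.79, 1.02, 0.66 and 1.22 (sh-S1 in Cy5, sh-S1 in Cy3, then sh-S2 likewise), with a mean of 0.92 ± 0.03 (SD over 2 clones, limma's adjusted p = 0.000470). It reached 1.09 on the processed signals and was called there. HOXA13, the most tail-ward HOXA gene, gave 1.02 and 1.24 in the RNA labelled sh-S1 but 0.08 and 0.34 in that labelled sh-S2, with a mean of 0.67 (limma's adjusted p = 0.0431), and it was called on the processed signals, at 1.49. HOXD1 gave 0.37 and -0.11 with the clones in Cy5 but -0.75 and -1.12 with them in Cy3, so that for sh-S1 alone the direction turned with the dye. HOXB3 had a mean of 0.62, HOXD9 of 0.47, HOXC8 of 0.45 and HOXD1 of -0.40. The other 12 genes tested passed neither, with means from -0.20 to 0.36: HOXA6, HOXB2, HOXB4, HOXB6, HOXB7, HOXB8, HOXC10, HOXC12, HOXD3, HOXD8, HOXD10 and HOXD13. The 16 genes that were not tested had means from -0.08 to 0.21.

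The sh-labelled RNAs could also be set against each other. In level, averaged over both dyes, 3 of the 39 HOX genes differed by at least 2-fold between them, against 0.542% of all probes, detected or not. HOXB13 and HOXA13 were lower in the RNA labelled sh-S2, by log2 differences of -1.24 and -1.10, and HOXC12 was higher, but it was not well above background in the RNA labelled sh-S1, so no size is given for it. No test was possible with 1 RNA of each clone.

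In A2780s, the pCMV-Hic-5 clone differed from its Ctrl in few HOX genes. Of the 28 measured, 1 was higher and 1 was lower by at least 1.5-fold on average with the same direction on both arrays. Among all 30530 probes measured, 3.24% were higher and 1.32% lower. HOXA13 gave a log2 ratio of -1.78 on the array that had the clone in Cy5 and of -1.44 on the other, with a mean of -1.61. Its other probe was well above background in the Ctrl but not in the clone, so that no size is given for it. HOXD1, a head-ward gene, gave 0.59 and 0.64, with a mean of 0.62 that lay just past 1.5-fold and fell to 0.49 when background was fitted on all spots. With 1 pair of RNAs there was no test, and the difference has no replicate check. The other 26 genes ranged from -0.52 for HOXD3 to 0.57 for HOXA3. HOXA3 again differed by dye, at 0.99 where the clone was in Cy5 and 0.14 where it was in Cy3. HOXB9 gave 0.03 and 0.48 (clone in Cy5, then in Cy3), HOXC9 gave -0.27 and 0.39, HOXC13 gave 0.14 and -0.04, and HOXB13 gave -0.65 and -0.03. None of these genes, all higher in the SKOV3 clones, was called in A2780s, and for HOXC9 and HOXC13 the arrays lay on both sides of 0. HOXB5 was at 0.20 and 0.29, HOXC12 at 0.20 and 0.14, HOXC8 at 0.21 and -0.02, and HOXB7 at -0.89 and 0.09. The median over the 28 genes was 0.06, over all 39 genes 0.02, and over all probes measured -0.01.

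The Ctrl RNAs of the lines were set against each other on levels per channel after normalization between arrays. The A2780s Ctrl had 5 of 28 measured HOX genes at least 2-fold higher than the SKOV3 Ctrl in both dyes and none 2-fold lower. Over 30784 probes, 5.42% were higher and 5.7% lower. There was no test, as each line gave 1 RNA. HOXC13 was higher in A2780s by 3.57 in Cy3 and 2.49 in Cy5 on the log2 scale. HOXC9 was higher by 3.39 and 1.58, HOXB5 by 1.86 and 1.94, and HOXB9 by 1.81 and 1.53. HOXC12 was higher by 2.24 and 1.78, but it was not well above background in the SKOV3 Ctrl, so its size is uncertain. Of the SKOV3 Ctrl channels the highest, in Cy5, was at 7.43. Without the sh-S1 arrays the mean difference of HOXC12 was 1.67 rather than 2.01. All 5 genes belong to the HOXB and HOXC clusters. HOXC8 differed by 1.60 in Cy3 but 0.82 in Cy5, and HOXB7 by 1.69 and 0.50, so both were past 2-fold on average, at 1.21 and 1.09, but not in both dyes. The other probe of HOXB7 was at -0.26, with the dyes on opposite sides of 0, at -0.76 and 0.25. Probes other than the brightest gave another call for HOXB13, whose second probe was higher in A2780s in both dyes, by 1.48 and 1.13, and for HOXA3, whose second probe was called lower there and was not well above background in the A2780s Ctrl. The other genes ranged down to -0.43. On processed signals scaled to the 75th percentile, 10 of the genes were higher. The median over the 28 genes was 0.50 and over all 39 genes 0.17, against 0.09 over all probes measured.

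**Figure D2:**
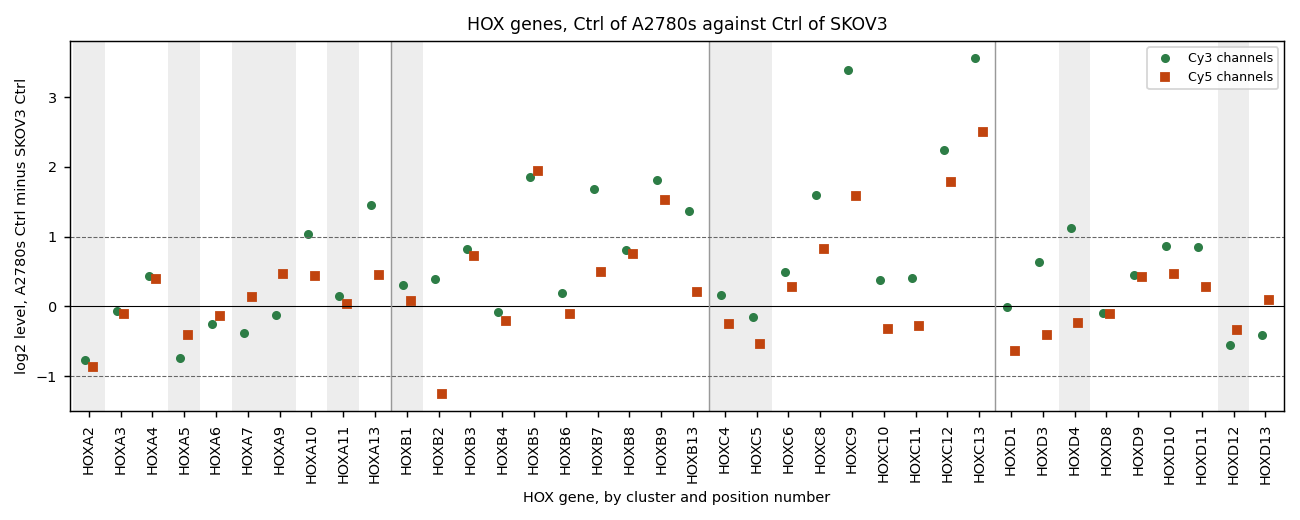
The difference in log2 level of the A2780s Ctrl minus the SKOV3 Ctrl (y axis) is plotted for the Cy3 channels (circles) and the Cy5 channels (squares) for each HOX gene named in the text (x axis, by cluster and position number). Grey columns are genes that were not measured and dashed lines mark 2-fold. HOXB5, HOXB9, HOXC9, HOXC12 and HOXC13 lie above 2-fold in both dyes.

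Side by side, the levels of these genes fell into different orders over the 5 RNAs. Each value below is a log2 level of 1 probe averaged over the dyes, so values compare RNAs within a gene and not genes with each other. HOXB9 was at 12.46 in the SKOV3 Ctrl, 15.24 in the RNA labelled sh-S1, 14.99 in that labelled sh-S2, 14.14 in the A2780s Ctrl and 14.39 in pCMV-Hic-5. HOXC9 was at 9.62, 12.82, 12.80, 12.10 and 12.16 in the same order. For both genes the SKOV3 Ctrl was lowest and the SKOV3 clones were above both A2780s RNAs, by 0.69 to 0.72 for HOXC9 and 0.85 or more for HOXB9 against the A2780s Ctrl. HOXC13 was at 7.93, 9.46, 9.59, 10.96 and 11.01, and HOXB5 was at 10.77, 11.64, 11.74, 12.67 and 12.92. For these genes the SKOV3 clones lay between the SKOV3 Ctrl and the A2780s RNAs. HOXB13 was at 9.79, 11.83, 10.59, 10.58 and 10.24, with the RNA labelled sh-S1 alone above the rest. HOXA13 was at 8.49, 9.71, 8.61, 9.44 and 7.83, and the pCMV-Hic-5 clone was lowest. HOXC12 was at 6.47, 6.20, 7.47, 8.48 and 8.65, where the first 2 values are not well above background. The SKOV3 and A2780s values come from different slides.

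**Figure D3:**
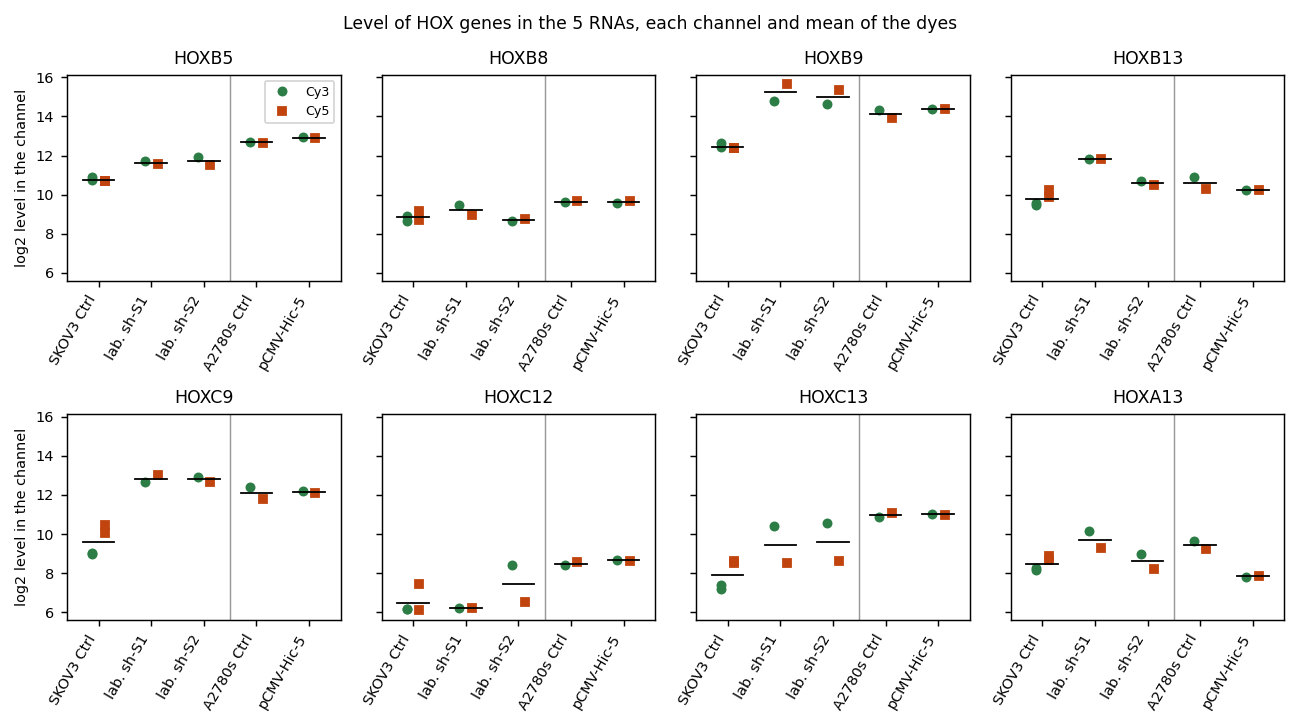
The log2 level of 8 HOX genes (y axis) is plotted for the 5 RNAs (x axis, where "lab." stands for "labelled") in the Cy3 channels (circles) and Cy5 channels (squares), with the mean of the dyes as a line. The grey line parts the SKOV3 slide from the A2780s slide. In HOXB9 and HOXC9 the SKOV3 Ctrl is lowest, at 12.46 and 9.62, while HOXB8, the neighbour of HOXB9, stays between 8.71 and 9.65.

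Over all 39 HOX genes, the median absolute difference in log2 level was 0.43 between the 2 Ctrl RNAs. It was 0.17 between the SKOV3 Ctrl and the RNA labelled sh-S1 and 0.16 for that labelled sh-S2. Against the A2780s Ctrl, the sh-labelled RNAs were at 0.40 and 0.41, and the pCMV-Hic-5 clone was at 0.10. Over all probes, detected or not, the medians were 0.36, 0.12, 0.14, 0.31, 0.29 and 0.11 in this order. The HOX medians thus followed the order of the pairs seen over the whole array closely. On the processed signals the HOX medians were 0.98, 0.45, 0.57, 0.80, 0.71 and 0.14 in this order. That alternative was chosen after the data were seen.

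The partners and regulators of HOX genes were followed through a list of which 41 genes had a probe: PBX, MEIS and PKNOX cofactors, CDX and EVX homeobox genes, Polycomb and trithorax genes, and genes of retinoic acid, the vitamin A product that opens HOX clusters from the head-ward end. In SKOV3, 4 of 35 tested were higher in the sh-labelled RNAs and 1 was lower, beside 2.99% and 4.14% of all probes tested. The DNA-binding cofactor MEIS2 had log2 ratios of 2.92, 2.62, 2.59 and 2.35 (sh-S1 in Cy5, sh-S1 in Cy3, then sh-S2 likewise), with a mean of 2.62 ± 0.21 (SD over 2 clones, limma's adjusted p = 9.61e-06), while its dimmer probe was at 0.61. PBX3 had 1.84, 2.37, 1.73 and 2.52, with a mean of 2.12 ± 0.01 (SD over 2 clones, limma's adjusted p = 1.19e-05). MEIS1 had 1.03, 1.96, 1.18 and 1.79, with a mean of 1.49 ± 0.01 (SD over 2 clones, limma's adjusted p = 5.64e-05). These cofactors were above 2-fold on all 4 arrays, and their SDs leave out the spread between dyes. The fourth, CRABP2, which carries retinoic acid to its receptor, had a mean of 1.46 (limma's adjusted p = 6.16e-05). ALDH1A3, which makes retinoic acid, was lower at -1.13 (limma's adjusted p = 0.000219).

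Of the listed groups, the cofactors had 3 of 8 tested genes called, Polycomb 0 of 9, trithorax and demethylase genes 0 of 6, CDX and EVX genes 0 of 4, and retinoic acid genes 2 of 7. Between the Ctrl RNAs, 6 of 38 were higher in A2780s and 2 were lower, beside 5.42% and 5.7% of all probes measured. Among the higher genes were the cofactors MEIS2, PBX3 and MEIS1, with log2 differences of 2.11, 1.87 and 1.71, as well as CRABP2 at 1.90 and the histone demethylase gene KDM6A at 1.50. The lower genes were the demethylase gene KDM6B, at -1.13, and the Polycomb gene RING1, at -1.11.

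**Figure D4:**
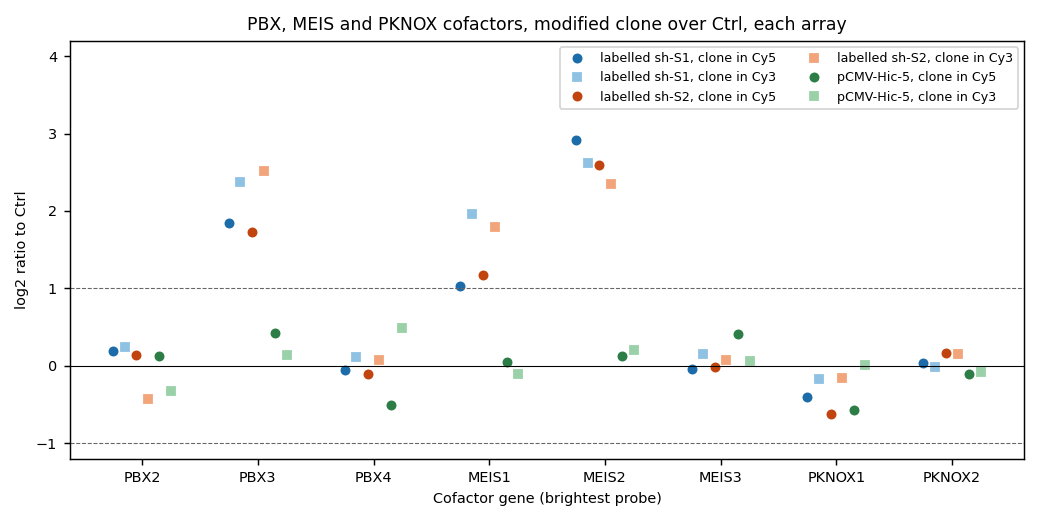
The log2 ratio of modified clone over Ctrl (y axis) is plotted for each of the 6 arrays for the brightest probe of cofactor genes (x axis), with dashed lines at 2-fold. MEIS2, PBX3 and MEIS1 lie above 2-fold on all 4 SKOV3 arrays, between 1.03 and 2.92, and within 2-fold on both A2780s arrays.

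Noncoding genes of the HOX clusters were read by 11 probes. HOTAIRM1, of the HOXA cluster, was lower in the sh-labelled RNAs, with log2 ratios of -0.44, -1.51, -0.78 and -1.89 (sh-S1 in Cy5, sh-S1 in Cy3, then sh-S2 likewise). The mean was -1.15 ± 0.25 (SD over 2 clones, limma's adjusted p = 0.000451). It was well above background in the SKOV3 Ctrl, on none of the arrays of the RNA labelled sh-S1, on 1 of those labelled sh-S2 and in neither A2780s RNA, so the sizes depend on the background correction, and on the processed signals the mean was -4.24. HAGLROS, of the HOXD cluster, had a mean of -0.72 (limma's adjusted p = 0.00310) and was short of 2-fold, but it was at -1.81 on the processed signals. HOXA11-AS, antisense to HOXA11, had log2 ratios of -1.27 and -0.75 in pCMV-Hic-5, with a mean of -1.01, and of 0.73 on average in the sh-labelled RNAs (limma's adjusted p = 0.00688), which became 2.46 on the processed signals. Its neighbour HOXA13 had the same signs in both lines. HOXC13-AS, antisense to HOXC13, had a mean of 0.50 in SKOV3 (limma's adjusted p = 0.0145), or 2.17 on the processed signals, and HOTAIR, of the HOXC cluster, was not tested there. Both antisense genes were well above background on only 2 of the 4 SKOV3 Ctrl arrays. HOXA11-AS entered the SKOV3 test only through the clones and HOXC13-AS only through sh-S2, so their sizes depend on the background correction as well.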

How the data were processed

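Arrays of RNA from SKOV3 and A2780s clones were used as deposited. The authors deposited spot intensities from Agilent Feature Extraction, unnormalized means and local backgrounds in both dyes, with processed intensities and log10 ratios of Cy5 over Cy3; the deposited series log10 ratios are the latter, not turned on dye-swapped arrays. The version is 8.5.1.1 in the submitters' processing notes and 10.7.3.1 in the file headers. Direction came from the dye labels.

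Mean intensities were corrected by normexp (limma 3.58.1, R 4.3.3, offset 50), with parameters fitted without spots of uneven background and without 39 spots of 1 A2780s array with local background over 1000. Loess within arrays and, for levels, Aquantile between arrays followed, on the log2 scale. Arrays of the same RNAs were averaged. In SKOV3, limma's lmFit and eBayes tested clone over Ctrl against 0 over 24956 probes, with Benjamini-Hochberg adjustment. The test was also run on simulated data without a shared Ctrl or a dye effect, so that run does not cover these. Clones are separate, but the Ctrl's spread and the spread between dyes are left out. Precision is limited by signal over background and by how few arrays there are.

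The HOX genes and the lists were chosen with earlier results of these data known. HOX genes are named, with full values for genes called or past 2-fold on average in any comparison; of the partner list, genes called are named. A few items of these lists count toward the totals but are not reported here. Of the genes' probes, 38 of 39 matched a RefSeq transcript by accession. Alternatives are processed signals, deposited ratios, other fits and filters, single dyes and leaving out a clone.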

Additional observations from a re-analysis of the deposited data

Results flagged for a closer look

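For 4 HOX genes, every SKOV3 array lay on one side of 0 and both A2780s arrays on the other, in the comparison of modified clone with Ctrl. The rule takes signs of any size, and how many of all probes meet it was not counted, so no excess among HOX genes is shown. The constructs differ between the lines, an shRNA in SKOV3 and an expression vector in A2780s, and the difference was not tested. HOXA13 was at a mean log2 ratio of 0.67 in SKOV3 and -1.61 in A2780s. HOXB13 was at 1.42 and -0.34, though 1 of the A2780s arrays was at -0.03. HOXD3 was at 0.30 and -0.52, with 1 SKOV3 array at 0.00. HOXD8 was at -0.20 and 0.40. Only HOXA13 was past the fold threshold in A2780s, and only HOXB13 was called in SKOV3.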

How the results depend on the processing

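No HOX gene changed direction where it was called. HOXB9, HOXC9 and HOXC13 passed 2-fold under all 10 alternatives in SKOV3, at log2 ratios of 2.33 to 2.97, 2.55 to 3.84 and 1.29 to 3.34. Not all of these are separate checks. Each of these genes has 1 probe, so averaging over probes and dropping the filter on dim probes could not change its ratio. The deposited ratios repeat the processed signals. The 5 higher HOX genes in SKOV3 became 3 to 6 when a clone was left out, 3 without sh-S1 and 6 without sh-S2. In A2780s the 1 higher gene became 0 with background fitted on all spots, 2 with the clone in Cy5 only and 3 with it in Cy3 only, and the 1 lower gene became 2 on processed signals, 2 on deposited ratios and 4 with the clone in Cy5 only. In the same line, 1 of 38 measured partner genes was higher and none lower, beside 3.24% and 1.32% of all probes measured. The 1 higher partner gene became 3 with the clone in Cy5 only and 2 in Cy3 only, and none lower became 1 on processed signals, 1 on deposited ratios and 2 in Cy5 only. Between the Ctrl RNAs, 5 higher HOX genes became 10 on processed signals and 10 in Cy3 only, and none lower became 1 in Cy5 only. The cause was not tested. Over all comparisons, 75 alternative counts stayed within 1.5 times of their main count and 15 did not. The ratios already pair each clone with its Ctrl, as each array holds both RNAs of its comparison. No further pairing was made, and the clones share 1 Ctrl RNA. The dim Cy5 channel in SKOV3 limits low genes.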
